A study of Mus musculus with 8 samples.

Results

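Cardiomyocytes are the contractile muscle cells of the heart. Here they are the 425 cells, of 28723 in the table, that carry this name in the authors' combined cell type annotation. Of these, 423 came from libraries sorted as wild-type (WT) host cells and 2 from libraries sorted as cells without Eomes. The table lists labels and quality measures for each cell and no gene values, so Tnnt2, Myl7, Nkx2-5 and Tbx5, 4 genes that mark cardiac cells, could not be used to check the name. All 425 cells also carried the name in the original gastrulation atlas, and 425 was the number of cells with that original label.

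The study asked what the T-box transcription factor Eomes does during formation of the mesoderm. Mouse embryonic stem cells (ESC) that carry the red fluorescent protein tdTomato and an Eomes loss-of-function allele made with CRISPR were injected into WT C57BL/6 blastocysts. Chimeric embryos labelled E8.5, about 4 per tube, were sorted into tdTomato+ (Eomes-KO) and tdTomato- (WT host) cells for droplet single-cell RNA-seq. The embryos formed 4 pools, and each pool gave 1 Eomes-KO and 1 WT host library, so the 2 genotypes came from the same embryos. The injected ESC came from 4 clones of 1 male tdTomato line. Host blastocysts were of both sexes. No library held injected ESC with intact Eomes, so loss of Eomes and origin from ESC cannot be told apart.

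The heart tube forms from progenitors of the anterior lateral mesoderm that leave the primitive streak early in gastrulation. The first heart field (FHF) makes the cardiac crescent, differentiates early and gives rise mainly to the left ventricle. The second heart field (SHF) lies next to the pharyngeal mesoderm, differentiates later and adds the right ventricle and the outflow tract. Eomes is expressed in the early streak and is known to act upstream of Mesp1, a transcription factor of early cardiac mesoderm.

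The libraries are named by the cells they hold. Eomes-KO libraries held 602, 1153, 3346 and 3465 cells and WT host libraries 2414, 3791, 5819 and 8133, with 19370600 to 66414390 unique molecular identifiers (UMIs, counted RNA molecules) in a library. The median UMI count per cell was 8901 to 32560 in Eomes-KO and 5124 to 11002 in WT host libraries. Only the 3465-cell Eomes-KO library, at 8901, lay within the WT host range, and the other 3 were deeper. Across libraries, 80 cell barcodes occurred in 2 libraries each. Among cardiomyocytes, 4 WT host cells and neither Eomes-KO cell had such a barcode, and the 4 cells sharing it in other libraries were not cardiomyocytes. Shares below are of epiblast-derived cells, which leaves out visceral, parietal and extraembryonic endoderm and extraembryonic ectoderm.

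Cardiomyocytes were almost absent among Eomes-KO cells. They made up 2.13% of the 2414-cell, 2.16% of the 3791-cell, 1.75% of the 5819-cell and 2.52% of the 8133-cell WT host library, on 51, 81, 90 and 201 cells. The WT host mean was 2.14% ± 0.316 (SD, n = 4). The 602-cell and 1153-cell Eomes-KO libraries held none. A limit of detection of 3 cells stands for shares of 0.499% and 0.261% there, and the exact binomial upper limits were 0.612% and 0.320%. The 3346-cell and 3465-cell libraries held 1 cell each, 0.0299% and 0.0289%. At the WT host mean share the 4 Eomes-KO libraries would have held 12.8, 24.6, 71.5 and 74.1 cardiomyocytes. Each WT host library lay above each Eomes-KO library, also when the upper exact binomial (Clopper-Pearson) limit of 0.612% for the 602-cell library is taken.

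Over all cells of a genotype, the WT host share was 93.9 times the Eomes-KO share (exact 95% counting interval 25.8 to 778). Leaving out any single library gave ratios of 81.3 to 114. In a test of library counts over all types with edgeR's quasi-likelihood method, cardiomyocytes were lower in Eomes-KO with an adjusted p of 4.9e-07, and with 4.5e-13 to 2.4e-05 under 21 alternatives. That call was common in this contrast: 48.5% of the 33 cell types tested were called lower in Eomes-KO. Intervals and floors cover counting error only, and not errors of the sort.

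**Figure D1:**
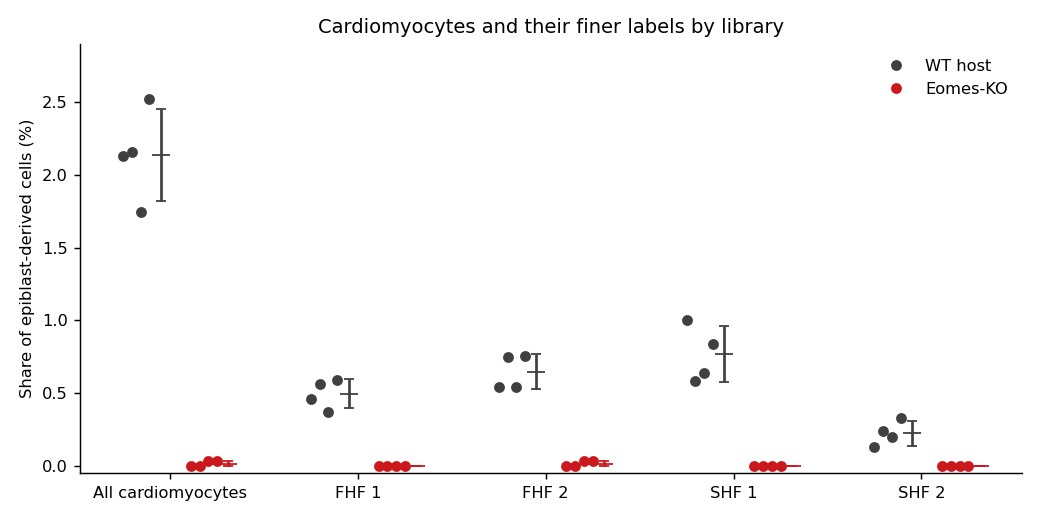
Share of epiblast-derived cells (%, vertical axis) that were cardiomyocytes, in all and by finer label, with WT host libraries in dark grey and Eomes-KO libraries in red. Each point is a library. Bars give the mean ± SD over 4 libraries and stop at 0. All WT host points for the whole class lie between 1.75% and 2.52%, and no Eomes-KO point exceeds 0.0299%.

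The extended atlas divides the class by heart field, and both fields were lower in Eomes-KO. By these labels 227 WT host cardiomyocytes were of the FHF class, 194 of the SHF class, and 2 were labelled epicardium, the outer layer of the heart. The FHF class made up 1.14% ± 0.215 (SD, n = 4) of WT host epiblast-derived cells and counted 2 Eomes-KO cells, a WT host share 50.4 times higher (exact 95% counting interval 13.8 to 419). The SHF class made up 0.988% ± 0.184 (SD, n = 4) and was not seen among Eomes-KO cells, so that its share was at least 28.7-fold lower when 3 cells over the genotype are taken as the limit of detection. Both classes were called lower by edgeR (adjusted p = 3.8e-06 for FHF, with a range of 4.2e-10 to 8.6e-05 under the alternatives, and 1.5e-05 for SHF, with 8.3e-11 to 0.00039), in a fit that called 50% of 34 types lower. Every WT host library held both classes, at 24 or more FHF and 27 or more SHF cells. With 2 Eomes-KO cells, both FHF, whether the fields differed in their loss could not be tested.

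Each field has 2 finer labels, which the atlas numbers. Cardiomyocytes_FHF_1 counted 98 WT host cells against 0 (at least 14.5-fold lower), and Cardiomyocytes_FHF_2 counted 129 against 2 (WT host share 28.6 times higher, exact 95% counting interval 7.77 to 239). Cardiomyocytes_SHF_1 counted 146 against 0 (at least 21.6-fold lower) and Cardiomyocytes_SHF_2 48 against 0 (at least 7.10-fold lower). All 4 were called lower by edgeR when entered as types of their own, a division made once the values were known, with adjusted p of 1.4e-05 to 0.0011. In that fit 52.8% of 36 types were called lower.

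Cells next to the cardiomyocytes were lower too, though less so. Pharyngeal mesoderm, which gives rise to head muscle and adds cells to the heart, counted 1010 WT host and 53 Eomes-KO cells, a WT host share 8.46 times higher (exact 95% counting interval 6.42 to 11.4). Cardiomyocytes were 31.3%, 29.0%, 29.2% and 29.4% of cardiomyocytes plus pharyngeal mesoderm in the 2414-cell, 3791-cell, 5819-cell and 8133-cell WT host libraries, a narrow range around 29.7% ± 1.04 (SD, n = 4). In Eomes-KO libraries they were 0% of 6 cells, 0% of 3, 5.88% of 17 and 3.45% of 29, a mean of 2.33%. The 2 genotypes did not overlap, and the difference, -27.4 percentage points, had p = 0.029 in a two-sided exact permutation test of 4 against 4 libraries, the smallest p that this test can give. Cardiomyocytes were therefore lower relative to pharyngeal mesoderm as well as relative to all epiblast-derived cells.

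Extended labels outside the class were lower too. Labels of cardiopharyngeal progenitors, which precede heart and head muscle, counted 590 WT host and 15 Eomes-KO cells, a ratio of shares of 17.5 (exact 95% counting interval 10.5 to 31.4). Among them the SHF label counted 361 against 9 cells, the FHF label 135 against 4, the anterior label 80 against 2, and the label with no field 14 against 0. The first 3 were called lower by edgeR on all extended labels (adjusted p = 8.9e-07, 8.0e-05 and 0.00014), a fit added after the data were seen, and the last was not (adjusted p = 0.055). That fit called 63.8% of 69 labels lower. The epicardium label counted 46 against 4 cells (WT host share 5.11 times higher, exact 95% counting interval 1.86 to 19.5) and was called (adjusted p = 0.017 from edgeR). The endocardium label, for the inner lining of the heart, counted 9 WT host cells and none from Eomes-KO, too few to be tested.

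Both Eomes-KO cardiomyocytes carried the label Cardiomyocytes_FHF_2, and all of the 15 nearest atlas cells of each were cardiomyocytes in the original atlas (label score of 1). The cell of the 3346-cell library had 26126 UMIs, 5166 genes, 1.75% mitochondrial and 18.9% ribosomal UMIs, a doublet score of 0.26 and mapped to E8.25. The cell of the 3465-cell library had 7901 UMIs, 2698 genes, 1.52% mitochondrial and 17.2% ribosomal UMIs, a doublet score of 0.18 and mapped to E8.5. Their scores for the finer label were 0.867 and 0.933, above the mean of 0.782 over the 129 WT host cells with the same label. The UMI count of the 3346-cell library's cell exceeded that of all 129 (highest 15425). The median UMI count of its library, 16995, was also above every WT host library. In ribosomal percent both fell within the WT host FHF_2 range of 12.1% to 27.0%, and differed from the means of their own libraries by -8.13 and -8.51 points. In those libraries only 16 of 3345 and 5 of 3465 epiblast-derived cells were lower. Genotype was known only from the sort, with the same tdTomato status for all cells of a library. The study reports that Eomes-KO cells did not form non-epiblast lineages. By label, 8561 of 8566 Eomes-KO cells were epiblast-derived, against 19284 of 20157 WT host cells. Whether either cell was a host cell that passed the sort was not tested.

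In WT host libraries the 2 heart fields were present in similar numbers. The SHF class was 52.9%, 38.8%, 47.8% and 46.5% of cardiomyocytes with a field in the 2414-cell, 3791-cell, 5819-cell and 8133-cell libraries, a mean of 46.5% ± 5.86 (SD, n = 4). The pooled share was 46.1% (exact 95% interval 41.2% to 51.0%). The 3791-cell library was lowest and the 2414-cell library highest, but the counting intervals of all 4 libraries overlapped. Cardiomyocytes_SHF_1 was the largest label at 34.5% of WT host cardiomyocytes, followed by Cardiomyocytes_FHF_2 at 30.5%, Cardiomyocytes_FHF_1 at 23.2% and Cardiomyocytes_SHF_2 at 11.3%. Over libraries the SHF_1 share ranged from 27.2% to 47.1%, overlapping the FHF_2 range of 25.5% to 34.6%. The SHF_2 range, 5.88% to 12.9%, lay below that of each of the other labels.

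The field split depends on which annotation draws the border of the class. Of 352 WT host cells with the extended label Cardiomyocytes_FHF_1, 98 (27.8%) were cardiomyocytes in the combined annotation, 237 (67.3%) were pharyngeal mesoderm and 17 (4.83%) mesenchyme. Cardiomyocytes_SHF_1 was divided far less, with 146 of 162 cells in the class and 16 in pharyngeal mesoderm. All 129 FHF_2 and all 48 SHF_2 cells were in the class. When each of these cells was counted whatever its combined label, the SHF share was 31.2% in place of 46.5%. The genotype difference was as large with the wider definition, at 691 WT host and 3 Eomes-KO cells (WT host share 102 times higher, exact 95% counting interval 34.8 to 497). The added Eomes-KO cell was pharyngeal mesoderm with the FHF_1 label and a finer-label score of 0.333.

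**Figure D2:**
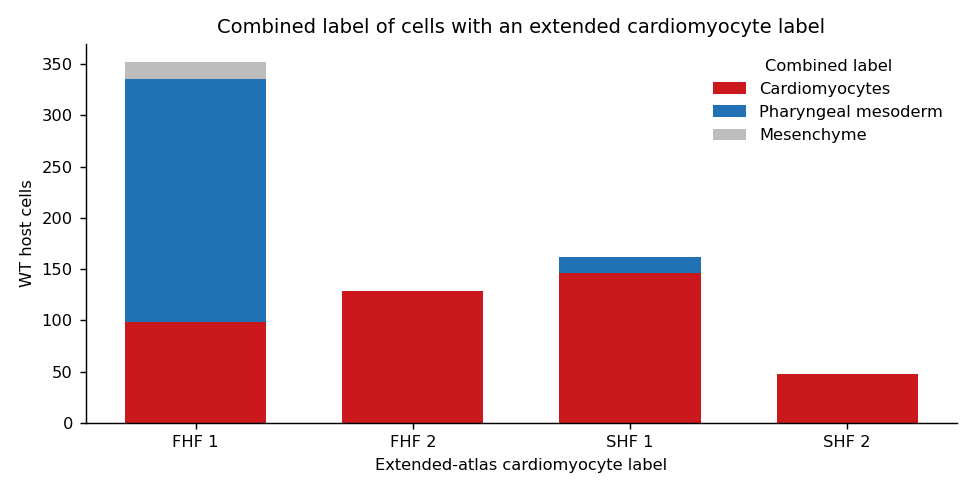
WT host cells (vertical axis) with each extended-atlas cardiomyocyte label (horizontal axis), coloured by their label in the combined annotation. The FHF 1 bar is mostly pharyngeal mesoderm (237 of 352 cells), while the FHF 2 and SHF 2 bars are cardiomyocytes throughout.

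The original-atlas label score is 1 when all of a cell's 15 atlas neighbours have its original label, here cardiomyocytes. It was highest for label 2 of each field. The mean original-atlas score of WT host cardiomyocytes was 0.974, and 367 of 423 cells had the full score. All FHF_2 and all SHF_2 cells had it, against 72.4% of FHF_1 and 81.5% of SHF_1 cells. Cardiomyocytes scored higher than other epiblast-derived cells by 0.088 to 0.119 in the 4 WT host libraries (mean difference 0.11, standard error 0.0084, limma adjusted p = 0.00022, and 3.6e-10 to 0.0042 under the alternatives), the highest of 22 types, with allantois endothelium next (0.092) and caudal mesoderm lowest (-0.17). The test called 77.3% of the 22 types. The score was read from the same neighbours that gave each cell its label, so it is no independent check of the name. Which of the 4 finer labels a cell took was less certain, with a mean score of 0.777 over the 423 cells, and 28 cells were under 0.5. On this finer-label score label 2 was not higher, at means of 0.799 (FHF_1), 0.782 (FHF_2), 0.765 (SHF_1) and 0.758 (SHF_2). The 423 cells were matched to 319 different nearest atlas cells, at most 5 to 1 atlas cell.

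The mapped stages of cardiomyocytes were concentrated at E8.25. Of 423 WT host cells, 308 mapped to E8.25, 92 to E8.5, 19 to E8.0, 4 to E7.75 and none to E7.5, the earliest atlas stage allowed. The E8.25 share was 74.9% ± 6.65 (SD, n = 4) in cardiomyocytes and 42.3% ± 5.57 in other epiblast-derived cells, with ranges of 66.7% to 81.5% and 37.1% to 47.6% that did not overlap. E8.0 held 4.87% ± 3.52 of cardiomyocytes and 33.6% ± 11.3 of pharyngeal mesoderm. The E8.5 share of cardiomyocytes was below that of other cells in 4 of 4 libraries, with differences of -23.1 to -2.15 points (mean -8.17, standard error 3.87), and limma did not call it (adjusted p = 0.061, and 0.046 to 0.46 under the alternatives). It called 59.1% of 22 types. The mapped stage and the cell type label came from the same atlas neighbours, so this test is not independent of the label. In the order of E8.5 shares cardiomyocytes stood between allantois endothelium and embryo proper endothelium, with rostral neurectoderm lowest and neural crest highest.

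Averaged over libraries, the share mapped to E8.5 differed more between the 2 labels of a field than between the whole field classes. Between FHF_2 and SHF_2, however, it differed more than between the 2 FHF labels. E8.5 held 4.08% of FHF_1 and 25.6% of FHF_2 cells, and 13.7% of SHF_1 and 72.9% of SHF_2 cells. Label 2 was above label 1 in each of the 4 libraries in both fields, by 6.29 to 31.2 points in the FHF and 44.8 to 87.5 points in the SHF, where the 2414-cell library held 3 SHF_2 cells. All 23 cells mapped before E8.25 were FHF_1 or SHF_1. The stage and the label were read from the same atlas neighbours, and this contrast was chosen after the values were seen, so it was not tested. Between fields, the E8.5 share was 14.8% in the FHF and 25.4% in the SHF class, higher in the SHF in 4 of 4 libraries with FHF minus SHF differences of -14.8 to -5.07 points. The exact sign-flip permutation test gave the smallest p that 4 libraries allow (adjusted p = 0.50 over 8 measures). The field classes too were read from the same atlas neighbours as the stage, so this comparison is not independent of the labels.

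**Figure D3:**
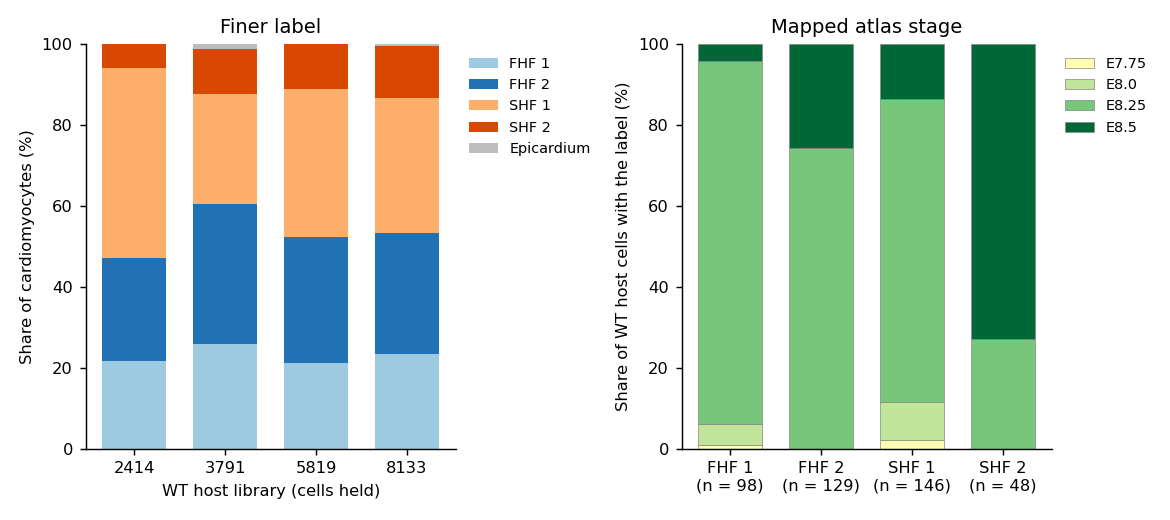
Left, share of cardiomyocytes (%) with each finer label in the WT host libraries, named by their number of cells. Right, share (%) of WT host cells of each finer label that mapped to each atlas stage, where SHF 2 reaches 72.9% at E8.5 and FHF 1 4.08%.

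Cardiomyocytes had the lowest ribosomal percent of 22 cell types. Ribosomal protein genes and mitochondrial genes had been left out when cells were matched to the atlas. The ribosomal and mitochondrial percentages of a cell's UMIs were therefore not among the values that gave it its label. As shares of all UMIs they still depend on the counts of the other genes, which include those used for matching. The mean ribosomal percent of cardiomyocytes was 22.8%, 23.2%, 22.2% and 21.4% in the 2414-cell, 3791-cell, 5819-cell and 8133-cell libraries, and that of other epiblast-derived cells 25.8%, 26.9%, 25.1% and 24.8%. Each cardiomyocyte mean lay below every mean of the other cells. The difference was -3.27 percentage points (standard error 0.18, lower in 4 of 4 libraries), which limma called with an adjusted p of 3.0e-18 and with 8.5e-23 to 8.3e-05 under the alternatives. It called 63.6% of the 22 types in one direction or the other. These p-values rest on a spread that limma shared over the types, and not on the cardiomyocyte differences of 4 libraries alone.

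Mesenchyme came next, at -2.72 points, and erythroid cells were highest, at 1.77. Against pharyngeal mesoderm alone, whose means were 23.9% to 25.2%, the difference was -2.03 points, and without erythroid cells in the reference, an alternative added once the values were known, -2.87 points. Cardiomyocytes stood lowest with either reference as well. The mean over all epiblast-derived cells was 24.8% to 26.9% in the WT host libraries, and each difference was taken within a library.

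Mitochondrial percent was somewhat higher in cardiomyocytes than in other cells. It was 1.95%, 1.47%, 2.21% and 2.20% against 1.71%, 1.46%, 1.99% and 1.84% in the 2414-cell, 3791-cell, 5819-cell and 8133-cell libraries. The mean difference was 0.21 points (standard error 0.056, higher in 4 of 4 libraries, limma adjusted p = 0.0019, range 0.00012 to 0.40 under the alternatives), with 59.1% of 22 types called. This standard error was the same for all 22 types, so it is a shared spread and not that of cardiomyocytes alone. The differences of cardiomyocytes in the 4 libraries ran from 0.0071 to 0.37 points. The 3791-cell library showed hardly any difference (0.0071 points), and without the 8133-cell library the difference was 0.15 points and no longer called (adjusted p = 0.068 from limma). Only gut was higher (0.54), erythroid cells followed (0.16), and the forebrain, midbrain and hindbrain label was lowest (-0.42). Against pharyngeal mesoderm the difference was 0.056 points and was not called (adjusted p = 0.40 from limma).

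**Figure D4:**
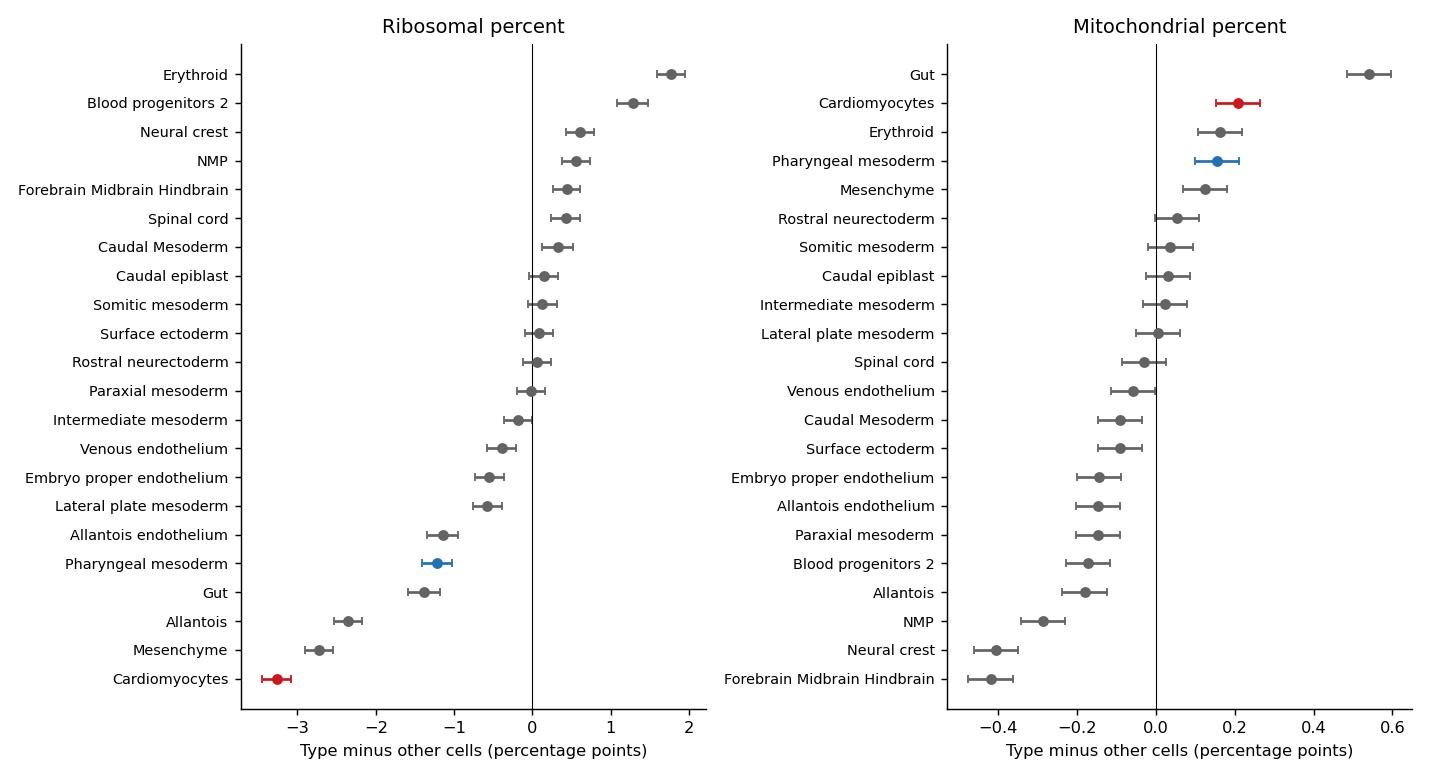
Difference in ribosomal (left) and mitochondrial (right) percent of UMIs (percentage points, horizontal axes) between each of 22 cell types and all other epiblast-derived cells, mean over 4 WT host libraries with the limma standard error as bars. Cardiomyocytes (red) are lowest at -3.27 on the left and next to the highest at 0.21 on the right, and pharyngeal mesoderm is blue.

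The low ribosomal percent was not shared evenly by the finer labels. Averaged over the 4 libraries it was 23.4% ± 0.796 (SD, n = 4) in FHF_1, 20.9% ± 1.37 in FHF_2, 23.8% ± 0.877 in SHF_1 and 19.8% ± 1.52 in SHF_2. In the FHF, label 2 differed from label 1 by -0.591, -2.98, -2.37 and -3.74 points in the 2414-cell, 3791-cell, 5819-cell and 8133-cell libraries. In the SHF the differences were -4.77, -2.83, -4.18 and -3.99 points. The direction was the same in 8 of 8 comparisons, and the smallest gap was in the FHF of the 2414-cell library, on 13 and 11 cells. This contrast was also chosen after the values were seen and carries no test. Even label 1 cells, at 23.0% to 24.6%, lay below the other epiblast-derived cells of their own library. Averaged over libraries, label 1 cells were at 23.6%, label 2 cells at 20.7% and pharyngeal mesoderm at 24.4%. Mesenchyme differed from pharyngeal mesoderm by -1.46 points and so lay below label 1. The lowest rank of the class therefore did not hold for label 1 cells alone. FHF_1-labelled cells in the class differed from FHF_1-labelled cells in pharyngeal mesoderm by -1.46 to -0.449 points in the 4 libraries.

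Mitochondrial percent did not follow this division, with label 2 above label 1 in 3 of 4 libraries in the FHF and 2 of 4 in the SHF. UMIs per cell did not either, since label 2 was lower in 2 of 4 libraries in the FHF and 1 of 4 in the SHF. Between fields, ribosomal percent was 22.0% in the FHF and 22.9% in the SHF class, lower in the FHF in 3 of 4 libraries (-2.19 to 0.105 points, exact sign-flip permutation p = 0.25, adjusted p = 0.67 over 8 measures). The FHF class also had a lower doublet score in 4 of 4 libraries (0.211 against 0.235, differences of -0.041 to -0.010, adjusted p = 0.50 from the exact sign-flip permutation test). Mitochondrial percent, log2 UMIs, log2 genes and both label scores changed sign between libraries. None of the 8 measures could reach the threshold with 4 libraries.

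**Figure D5:**
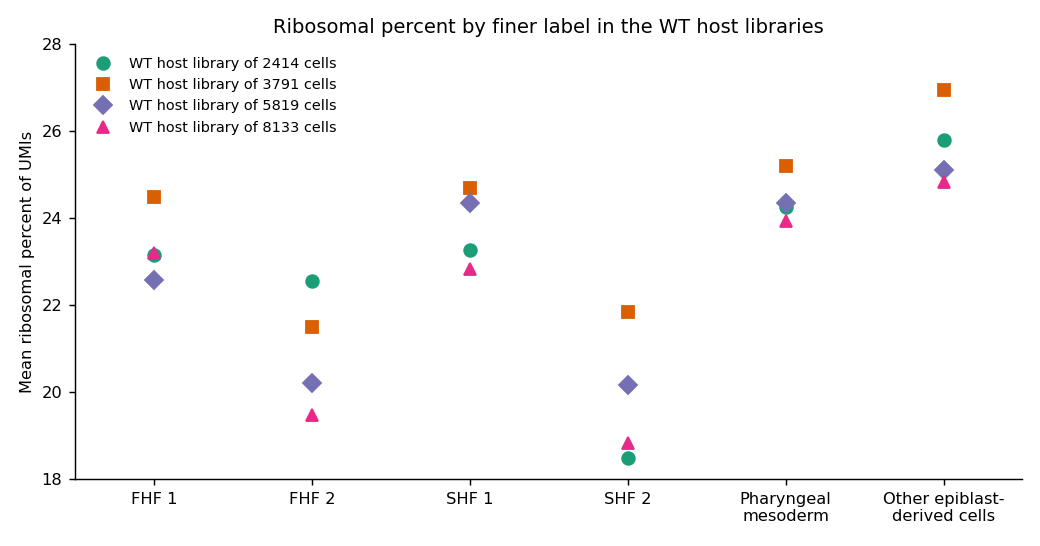
Mean ribosomal percent of UMIs (vertical axis, from 18 to 28) of cells of each finer label, of pharyngeal mesoderm and of all other epiblast-derived cells. Each symbol is 1 WT host library, and the FHF 2 and SHF 2 symbols lie below those of FHF 1 and SHF 1 of the same library.

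Cardiomyocytes held fewer UMIs than the average cell, by an amount that depended on the reference. Their mean was 7504, 9741, 9650 and 5068 UMIs in the 2414-cell, 3791-cell, 5819-cell and 8133-cell libraries, against 8520, 11118, 11113 and 5367 in other cells. On the log2 scale the difference was -0.15 (standard error 0.036, lower in 4 of 4 libraries, limma adjusted p = 0.00062, range 5.5e-05 to 0.30 under the alternatives), with 54.5% of 22 types called. Gut was lower (-0.29), paraxial mesoderm next above (-0.12) and erythroid cells highest (0.36). Without erythroid cells in the reference the difference was -0.062 and was not called (adjusted p = 0.091 from limma), nor was it against pharyngeal mesoderm (-0.038, adjusted p = 0.30).

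The number of genes detected was 2545, 2946, 2926 and 2027 per cardiomyocyte in the same order of libraries, against 2624, 3009, 3109 and 2057 in other cells. On the log2 scale the difference of -0.044 (standard error 0.017, lower in 4 of 4 libraries) was not called (limma adjusted p = 0.083, range 0.020 to 0.26 under the alternatives), and 31.8% of 22 types were. Gut was again lowest (-0.069), erythroid cells stood next above cardiomyocytes (-0.025) and blood progenitors 2 were highest (0.098). At equal UMIs, from a curve fitted to the other cells of each library, the difference was 0.025 (limma adjusted p = 0.057, above 0 in 3 of 4 libraries, with 90.9% of 22 types called), between blood progenitors 2 (-0.010) and rostral neurectoderm (0.034), with erythroid cells lowest (-0.20) and mesenchyme highest (0.084). It turned to -0.023 without erythroid cells (adjusted p = 0.019 from limma) and to -0.029 against pharyngeal mesoderm (adjusted p = 0.011), within a range of 0.0021 to 0.81 under the alternatives. The direction of this difference therefore depended on the reference.

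The doublet score of cardiomyocytes was 0.212, 0.248, 0.219 and 0.211 against 0.194, 0.192, 0.210 and 0.191 in other cells, a difference of 0.026 (standard error 0.011, higher in 4 of 4 libraries, limma adjusted p = 0.034, range 0.0052 to 0.89 under the alternatives), with 68.2% of 22 types called. Paraxial mesoderm (0.024) and caudal mesoderm (0.034) were its neighbours, with erythroid cells lowest (-0.11) and neural crest highest (0.059). The difference was 0.0019 without erythroid cells and -0.0080 against pharyngeal mesoderm, and it was not called in either comparison (adjusted p = 0.89 and 0.65 from limma). The call was also lost in 3 of 4 fits that left out 1 library. The difference was 0.016 without the 3791-cell library, 0.0283 without the 2414-cell library and 0.0276 without the 8133-cell library (adjusted p = 0.24, 0.063 and 0.069 from limma).

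The authors' limits on cells lay close to some cardiomyocytes. Of 423 WT host cells, 58 (13.7%) had fewer than 1750 genes, near the limit of 1500, against 9.42% of other epiblast-derived cells. Most of them, 52, were in the 8133-cell library, the library with the lowest median UMI count, where the shares were 25.9% and 20.02%. Above 4% mitochondrial UMIs, near the limit of 5%, lay 7 cardiomyocytes (1.65%) and 1.20% of other cells. The part of these limits in the shares above was not tested.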

How the data were processed

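Single-cell RNA-seq of sorted chimeric embryos was analysed from 1 deposited table with a row for each of 28723 cells. UMIs were counted by the authors with Cell Ranger 6.0.1 against mm10, as the submitters' processing notes also state. The counts deposited are each cell's total UMIs, not normalized. The mitochondrial and ribosomal percent of UMIs and the number of genes were deposited by the authors. They kept cells with over 1500 genes, under 5% mitochondrial and under 35% ribosomal UMIs, and a doublet score (deposited, hybrid method) of at most 0.5. The study also set a lower and an upper limit on reads per cell and an upper limit on genes. No further doublet removal was made here. The deposited label scores are the fraction of 15 nearest atlas cells with the transferred label. The table used here holds fewer cells than the study retained, and the others were not analysed here.

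Libraries were assigned to genotypes by the tdTomato status of their cells. Their names do not give the pool. Cells per library and type were tested with edgeR 4.0.16 (glmQLFit, glmQLFTest, R 4.3.3) with genotype as the only term, epiblast-derived cells as library size, no scaling and types with at least 10 cells. The study's design also had the pool as a term, which could not be fitted. Quality measures were tested with limma 3.58.1 across the 22 types with at least 10 cells in each WT host library, on the difference, within a library, between the type's mean and that of all other epiblast-derived cells. limma takes the spread of a type partly or wholly from the other types, each of which is also in the reference of the rest. For mitochondrial percent and log2 UMIs, at least, all 22 types had the same standard error. For genes at equal UMIs cardiomyocytes also shared theirs with other types. The standard errors and p-values are therefore not the spread of cardiomyocytes over 4 libraries alone. Genes at equal UMIs are residuals from a quadratic in log2 UMIs. P-values were adjusted by Benjamini-Hochberg over all types, with a threshold of 0.05. Library shares and differences were compared by exact permutation (scipy 1.17.1). Binomial and ratio intervals are exact (95%), and a genotype with no cell was given a floor of 3. Alternatives included TMM, DESeq2 1.42.0, limma on log2 shares with 0.01 added, other denominators and filters, and leaving out each library. Both fits were also run on simulated data, with as many types raised as lowered and with types drawn independently. Those settings differed from the data, where 16 types were called lower and 7 higher and the types shared their references.

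The members, labels and tests were chosen with earlier results of these data known. Cell types named were pharyngeal mesoderm, for each measure the types next to cardiomyocytes and the highest and lowest, every label that cardiomyocytes carried and every combined label of cells with an FHF or SHF cardiomyocyte label, and each Eomes-KO cardiomyocyte. Progenitor, epicardium and endocardium labels were added after their values were seen. No gene values were in the table used here, so no gene was tested.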

Additional observations from a re-analysis of the deposited data

Results flagged for a closer look

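In 3 of 26 sets of 4 libraries, 1 library stood apart from the other 3 by Dixon's test, which chance would do in about 1 set in 20. Cardiomyocytes of the 3791-cell WT host library differed from other cells by -23.1 percentage points in their E8.5 share, against -3.87 to -2.15 points in the other 3 libraries. In the same library the label score of cardiomyocytes exceeded that of other cells by 0.088, against 0.114 to 0.119 elsewhere. In the 5819-cell library, log2 genes were lower in cardiomyocytes by -0.088, against -0.035 to -0.025. In the 3791-cell library 39.2% of the other cells mapped to E8.5, the highest of the 4 (19.8% to 30.2% in the rest), while its cardiomyocytes, at 16.05%, were close to the 17.6% to 26.4% of the others. The cause was not tested.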

How the results depend on the processing

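The lower share of cardiomyocytes, of both field classes and the lower ribosomal percent kept their direction and call under every alternative with a value. So did the label score, which was read from the neighbours that gave each cell its label. Median log2 fold changes over types moved by -0.10 with TMM and by -0.90 and 0.70 with DESeq2's ratio and poscounts factors, without ending these calls. The within-cardiac difference ran from -28.6 to -26.6 points when a library was left out, where the smallest p is 0.057 (exact permutation). The SHF share was 31.2% with all cells of an FHF or SHF cardiomyocyte label, and 44.3% to 49.1% without 1 library. With at least 10000 UMIs it was 55.0% (SD 30.8), on only 84 cells, with libraries from 33.3% to 100%.

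Against pharyngeal mesoderm, differences became 0.056 (mitochondrial percent), -0.038 (log2 UMIs), -0.046 (log2 genes, now called), -0.029 (genes at equal UMIs), -0.0080 (doublet score) and 2.53 points (E8.5 share). Without erythroid cells, an alternative chosen after seeing the data, log2 UMIs were -0.062, log2 genes -0.052 (now called), genes at equal UMIs -0.023 and the doublet score 0.0019. Types with at least 20 cells per library gave calls of log2 genes (-0.044), genes at equal UMIs (0.025) and the E8.5 share (-8.17 points). With doublet scores under 0.25, log2 genes (-0.061) and genes at equal UMIs (0.038) were called, and with medians the doublet score difference of 0.030 was not. Leaving out 1 library gave 0.15 to 0.27 for mitochondrial percent (not called without the 8133-cell library), 0.019 to 0.033 for genes at equal UMIs (called without the 5819-cell library) and 0.016 to 0.031 for the doublet score (called only without the 5819-cell library). The E8.5 difference was -3.19 points without the 3791-cell library. Without 1 library, FHF minus SHF ran from -0.040 to 0.12 for mitochondrial percent and from -0.0068 to 0.0055 for the original-atlas label score. It turned sign for log2 genes with medians (0.0020), for the original-atlas label score with a finer-label score of at least 0.5 (0.0012), doublet scores under 0.25 (0.0043) and without the 2414-cell (0.0055) or 8133-cell library (0.00029), and for mitochondrial percent without the 5819-cell library (-0.040). The causes were not tested.

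With at least 10000 UMIs per cell, cardiomyocytes fell under the minimum in some library, so the quality measures have no value there. No paired analysis was possible because the library names do not say which 2 libraries came from one pool.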
